A study of Mus musculus with 90 samples.

Results

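The 12 libraries described here compare retinoic acid aggregates with embryoid bodies on day 6 of the differentiation of J1 mouse embryonic stem cells. They were chosen from 90 samples in all by their labels and by the structure of their counts. Libraries of these 2 lines were alike in both protocols, unlike those of WT. In each protocol there were 3 libraries of the CBX7-mCaPS line and 3 of the line labelled CBX7 KO, so that 6 libraries stood against 6. CBX7 and CBX2 are chromodomain subunits of Polycomb repressive complex 1, which helps to keep developmental genes silent. The mCaPS line carries CBX7 joined to a mutated form of the compaction and phase separation region of CBX2, and the KO line is labelled as lacking CBX7. Stem cells of both protocols were kept on mouse fibroblast feeders with LIF and freed of feeders before use. For embryoid bodies, hanging drops in medium with serum were pooled after 4 days and then kept in suspension, with no retinoic acid. For the aggregates, labelled neural progenitor cells, suspension cultures without LIF received 5 uM retinoic acid after 4 days, so that on day 6 they had been exposed for 2 days. RNA came from whole cultures. In such bulk samples a lower value can come from fewer cells of a type or from less RNA per cell, and these cannot be told apart. The labels name no separate cultures or clones behind the replicates, so the p-values measure the spread between these libraries, which may be technical.

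Retinoic acid is a small molecule made from vitamin A. It binds retinoic acid receptors (RARs), which pair with retinoid X receptors (RXRs) at DNA elements made of a repeated hexamer, and it induces genes such as Rarb, the CYP26 enzymes that degrade it, and the Hox genes at the 3′ side of each cluster. In the embryo it patterns the hindbrain and spinal cord, and in culture it is used to drive stem cell aggregates towards neural progenitors of caudal character. Embryoid bodies in serum pass through a state like the epiblast of the early embryo and then form derivatives of all germ layers.

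The protocol and the sequencing table cannot be told apart, since every embryoid body library is in one table and every aggregate library in the other. Day 0 stem cells of the same lines, 3 libraries per line in each protocol, gave the background between the tables. On day 6 libraries held 40.0 to 54.3 M counts (M, 1e6) in embryoid bodies and 38.8 to 55.6 M in aggregates. The 45S ribosomal transcript Rn45s took 10.7 to 25.6% and 7.9 to 27.4% of them. On day 0, 1 embryoid body library stood apart: mCaPS replicate 3 had 88.7% of its counts in Rn45s. The day 0 libraries of the embryoid body protocol also held more RNA of fibroblast genes. Of 20 markers of fibroblasts and feeders, 19 were lower in the aggregate protocol on day 0, with a median log2 difference of -4.22, and their mean log2(CPM + 1), with CPM the counts per 1e6 counts of a library, was 5.60 to 6.67 against 2.78 to 3.29. On day 6, 6 of 19 tested were higher and 8 lower. Day 0 differences and everything that subtracts them carry this gap, and its part in the results was not tested.

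The targeted gene was read first. Cbx7 (mm10, chr15:79915807-79932646, minus strand) stood at 77.4, 72.2 and 86.2 CPM in mCaPS embryoid bodies and at 106, 109 and 132 CPM in those labelled KO. In the aggregates it stood at 15.3, 26.4 and 14.7 CPM in mCaPS and at 28.3, 34.6 and 32.7 CPM in those labelled KO. The KO-labelled libraries were above the mCaPS libraries of the same protocol throughout. Gene counts do not show which part of the transcript was read. The line is called KO-labelled throughout, and directions between lines refer to the labels.

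A gene was called different when its adjusted p was below 0.05 over all genes tested. On day 6, 10575 of 16892 genes differed between the protocols (62.6%), 5328 of them higher in the aggregates (31.5%) and 5247 lower (31.1%). On day 0 the same test called 1546 of 16615 (9.30%), with 744 higher (4.48%) and 802 lower (4.83%). Without mCaPS embryoid body replicate 3 the day 0 count was 3081. Libraries of the 2 lines with the same replicate number varied together within a protocol, and with each such pair summed to 1 sample the counts were 10532 on day 6 and 985 on day 0. After subtraction of the day 0 difference, 6389 of 17485 genes were called (36.5%), 3112 higher (17.8%) and 3277 lower (18.7%). Of the 10575 genes of day 6, 5394 were called the same way after subtraction and 34 the opposite way. The median log2 difference over all genes was 0.02 on day 6 and 0.01 on day 0. With so large a background, the lists below are read by their size and direction, and lists with as many calls as the background are not taken to stand apart.

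Sequence is shown upstream of Rarb and Cyp26a1. Among genes of the retinoic acid and Hox lists described below, these 2 held a match to a DNA element that retinoic acid receptors bind. Windows of 250 bases before each RefSeq start site in GRCm38.p6 were searched. Capitals mark a direct repeat of hexamers with 5 bases between them, called DR5. The hexamer could read AGGTCA or AGTTCA or GGGTCA or GGTTCA, and both strands were searched. Each sequence is printed 5′ to 3′ on the strand of its gene. For Cyp26a1 it is the window without its last 10 bases, which GENCODE annotates as untranslated region. For Rarb it is the 30 bases around the element, since a GENCODE transcript of Rarb that starts further upstream places the whole window in its untranslated region.
Rarb, chr14:16575506-16575535, minus strand: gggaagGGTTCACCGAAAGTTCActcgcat
Cyp26a1, chr19:37697558-37697797, plus strand: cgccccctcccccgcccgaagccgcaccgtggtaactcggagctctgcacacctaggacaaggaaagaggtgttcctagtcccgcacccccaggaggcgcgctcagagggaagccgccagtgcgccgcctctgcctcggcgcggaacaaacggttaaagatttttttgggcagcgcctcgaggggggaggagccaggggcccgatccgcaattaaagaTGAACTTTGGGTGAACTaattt
In Rarb the element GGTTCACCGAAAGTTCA runs from base -53 to -37 before the start. In Cyp26a1 it lies at -32 to -16 on the opposite strand, where it reads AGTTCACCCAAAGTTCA. Of 27025 genes with a promoter in the RefSeq table, 28 held such a repeat (0.104%). Among the 65 genes of the retinoic acid and Hox lists, 41 were matched and 2 held it. Of the 28, 8 were tested on day 6, and 3 were higher and 2 lower in the aggregates (31.5% and 31.1% of all genes). One of the 3 was Hbb-y, an embryonic globin gene, which was not called in KO-labelled cells alone or in WT cells alone. A repeat with 2 bases between hexamers (DR2) was found in 55 genes (0.204%), none of them in those lists. A match is a run of letters, not a measured binding site.

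Genes of the retinoic acid pathway were higher in the aggregates. Of 26 tested genes for receptors, binding proteins, enzymes and targets, 22 were higher and 2 lower, with a median log2 difference of 3.80. After day 0 was subtracted the counts were again 22 and 2, and on day 0 itself 1 was higher (Crabp2) and 1 lower (Crabp1), with a median of -0.11. In WT cells, with 2 embryoid body and 3 aggregate libraries, 20 were higher and 2 lower of 26 (background 13.1% and 12.1%), with a median of 2.88. The mean log2(CPM + 1) over the list was 2.51 to 2.88 in the 6 embryoid body libraries and 5.16 to 5.41 in the 6 aggregate libraries. Single genes were less alike in the 2 lines. In the test between lines 6 of the 26 were higher in mCaPS and 2 lower (7.50% and 4.69% of all genes).

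Rarb (chr14:16430840-17082331, minus strand), the receptor gene that retinoic acid itself induces, stood at 0.840, 0.973 and 1.15 CPM in mCaPS embryoid bodies and at 0.539, 1.30 and 1.41 CPM in KO-labelled ones. Among aggregates it stood at 158, 122 and 185 CPM in mCaPS and at 104, 95.2 and 103 CPM in KO-labelled cells. All 6 aggregate libraries lay above all 6 embryoid body libraries, as they did for 3131 genes in all (18.5%), and 3391 genes lay wholly below (20.1%). The log2 difference was 6.95 ± 0.26 (SE, adjusted p = 3.46e-09), against 0.80 on day 0. In WT cells Rarb stood at 1.61 and 2.03 CPM in embryoid bodies and at 91.6, 101 and 76.8 CPM in aggregates. Rarg, a receptor of stem and epiblast cells, was lower in the aggregates, at 26.4 to 52.5 CPM against 89.8 to 126 CPM (log2 difference -1.33 ± 0.15, adjusted p = 7.14e-06). Rxrg was lower as well, at 0.0498 to 0.314 CPM against 4.00 to 9.93 CPM (log2 difference -5.53 ± 0.29, adjusted p = 2.11e-08). Rara, Rxra and Rxrb, the other genes of the 2 receptor families, were higher, with log2 differences of 0.60 ± 0.14, 1.25 ± 0.11 and 0.30 ± 0.06. In WT cells alone Rara and Rxrb were not called, nor was Rara in KO-labelled cells alone.

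The enzymes that clear retinoic acid were among the genes with the widest gaps. Cyp26b1 (chr6:84571414-84593908, minus strand) stood at 0.365 to 1.85 CPM in embryoid bodies. Aggregates held it at 577, 196 and 354 CPM in mCaPS and at 59.3, 49.9 and 92.5 CPM in KO-labelled cells. Its log2 difference was 7.54 ± 0.69 (adjusted p = 2.80e-06). Cyp26a1 stood at 2.03 to 11.9 CPM in embryoid bodies and at 115 to 168 CPM in aggregates, a log2 difference of 4.69 ± 0.37 (adjusted p = 9.07e-07). Its aggregate values were close together in both lines, unlike those of Cyp26b1. Cyp26c1 ran lower in level, at 0.0852 to 0.347 CPM and 1.76 to 6.33 CPM (log2 difference 4.45 ± 0.37). Dhrs3, which turns retinal back into retinol, stood at 2.73 to 11.1 CPM and 75.7 to 256 CPM (log2 difference 4.07 ± 0.38).

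Enzymes that make retinoic acid and proteins that carry retinoids gave a less even picture. Rdh10, which makes retinal, and Aldh1a3, which makes retinoic acid, were the 2 genes of the list that were not called (adjusted p = 0.0979 and 0.0830). Without KO-labelled embryoid body replicate 2 the Rdh10 difference was called, at 0.996, and without mCaPS aggregate replicate 3 that of Aldh1a3, at -2.03. With the lines summed Rdh10 was called as well (0.92, adjusted p = 0.00510). Of the lines taken alone, Rdh10 was called in mCaPS (1.75) and WT (1.34), and Aldh1a3 in KO-labelled cells (-2.08). Aldh1a2, the main source of retinoic acid in the trunk of the embryo, reached 1.12 to 7.52 CPM in the aggregates, against 0.434 to 0.725 CPM. Aldh1a1 stood at 1.92 to 5.72 CPM against at most 0.149 CPM (log2 difference 6.09 ± 0.44). Stra6, the membrane channel for retinol uptake, stood at 17.2, 25.1 and 8.32 CPM in mCaPS aggregates, at 49.8, 63.0 and 54.1 CPM in KO-labelled ones, and at 1.00 to 2.17 CPM in embryoid bodies. Crabp2, which carries retinoic acid to its receptors, stood at 76.1, 311 and 65.6 CPM in mCaPS aggregates and at 834, 683 and 608 CPM in KO-labelled ones. Its embryoid body values were 3.90 to 13.8 CPM. Crabp1, the other carrier, stood at 25.9, 164 and 23.6 CPM and at 128, 127 and 123 CPM in the same order, against 4.27 to 7.97 CPM in embryoid bodies. On day 0 Crabp1 went the other way and was lower in the aggregate protocol, at 7.70 to 13.1 CPM against 67.8 to 122 CPM. The mCaPS aggregate replicate 2 was nearer to the KO-labelled libraries than replicates 1 and 3 in each of these 3 genes.

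Direct targets and cofactors were high in all 6 aggregate libraries. Stra8 (chr6:34920948-34939344, plus strand), a germ cell gene that retinoic acid switches on, had 29 counts in the 6 embryoid body libraries together. It reached 12.4, 48.5 and 18.4 CPM in mCaPS aggregates and 173, 139 and 139 CPM in KO-labelled ones, and its log2 difference of 9.63 ± 0.59 rests on those few counts. Meis1, a cofactor of HOX proteins, stood at 1.17 to 7.69 CPM in embryoid bodies and at 169 to 212 CPM in aggregates (log2 difference 6.13 ± 0.47, adjusted p = 7.07e-07). Meis2, a cofactor of the same kind, had a log2 difference of 4.66 ± 0.31. Tgm2, a transglutaminase induced by retinoic acid in many cells, stood at 111, 74.2 and 120 CPM in mCaPS aggregates and at 29.9, 24.1 and 33.8 CPM in KO-labelled ones. Embryoid bodies held 1.34 to 3.16 CPM of it in either line, and the difference between the lines in the protocol effect was 2.25 on the log2 scale (adjusted p = 0.00256).

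**Figure D1:**
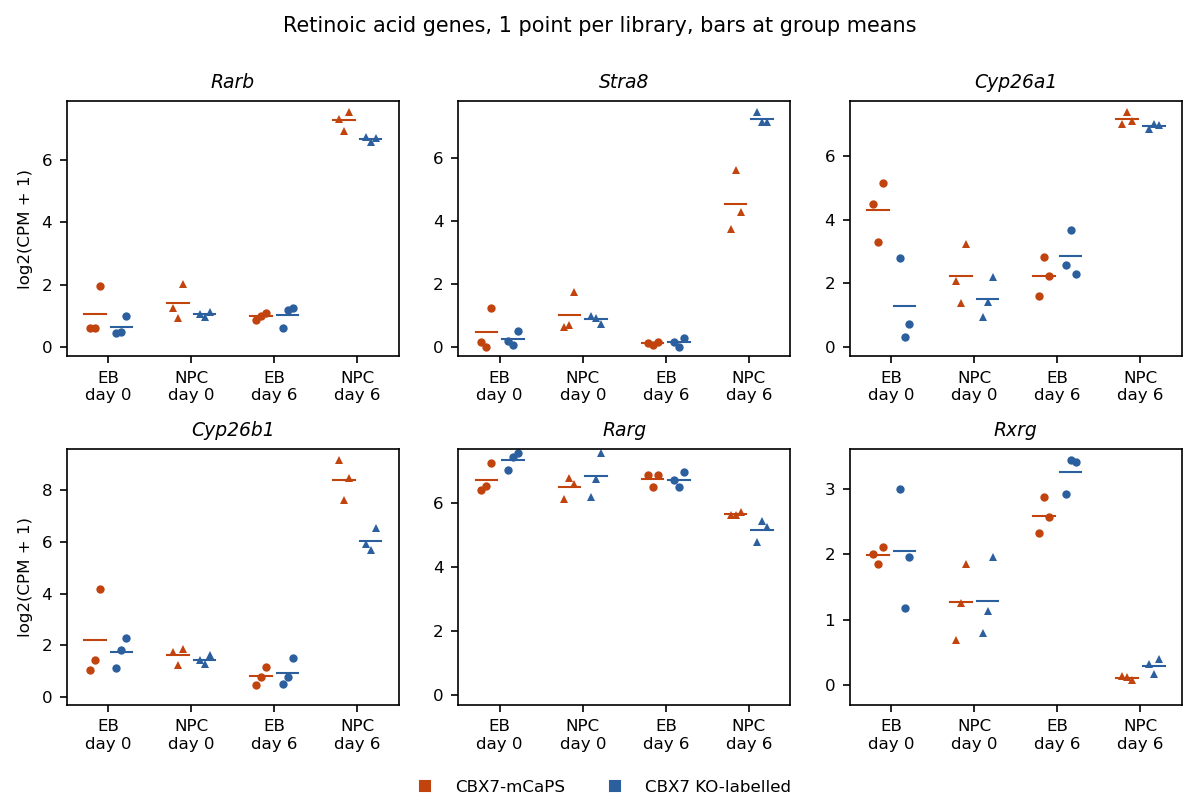
Levels of 6 retinoic acid genes as log2(CPM + 1) in each library of days 0 and 6, with 3 points per line and protocol and a bar at their mean; circles are embryoid body libraries and triangles aggregate libraries. Rarb, Stra8, Cyp26a1 and Cyp26b1 were higher in the day 6 aggregates than in the day 6 embryoid bodies, and Rarg and Rxrg were lower.

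The Hox genes encode the transcription factors that give cells their position from head to tail, and paralog groups 1 to 5 mark the hindbrain and neck. All 15 tested genes of groups 1 to 5 were higher in the aggregates, with a median log2 difference of 7.02, and all 15 again after day 0 was subtracted. In WT cells all 15 were higher as well, with a median of 8.73. The summed level of these genes was 2.64 to 15.7 CPM in embryoid bodies, 388 to 565 CPM in mCaPS aggregates and 886 to 889.7 CPM in KO-labelled ones. The median difference between the lines in the protocol effect was 0.25 on the log2 scale.

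The gap between protocols was wider in group 5 than in group 1 and smaller beyond. The median log2 difference was 5.10 in group 1, 6.78 in group 2, 6.63 in group 3, 7.63 in group 4 and 8.83 in group 5. It was 3.62, 2.56, 3.49 and 2.7 in groups 6 to 9. Neither of the 2 tested genes of group 10 was called, nor the 1 of group 11, and no gene of group 12 was tested. With the lines summed the gene of group 11, Hoxd11, was called lower (log2 difference -1.74, adjusted p = 0.0138). This order is a description of genes that are neighbours in their clusters, and with embryoid body levels so near 0 the fitted values depend on the count added before the logarithm. The spans of Hoxa3 and Hoxd3 overlap those of neighbouring Hox genes on the same strand, so their reads can be split between them.

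Hoxb4 (chr11:96318267-96321638, plus strand) stood at 0.181 to 0.469 CPM in embryoid bodies. In the aggregates it stood at 54.7, 48.9 and 40.1 CPM in mCaPS and at 76.8, 72.2 and 73.6 CPM in KO-labelled cells, a log2 difference of 7.71 ± 0.15 (adjusted p = 1.90e-11). Hoxc4 and Hoxc5 reached 30.8 to 108 CPM and 25.0 to 130 CPM in the aggregates, with at most 0.511 CPM of either in embryoid bodies. Hoxb5 (chr11:96303512-96306121, plus strand) had 19 counts in the 6 embryoid body libraries together and reached 13.2, 16.0 and 7.25 CPM in mCaPS aggregates and 62.9, 71.8 and 64.2 CPM in KO-labelled ones. Hoxd4 had 17.6, 35.2 and 10.8 CPM in mCaPS aggregates and 145, 108 and 119 CPM in KO-labelled ones.

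Of 19 tested genes of groups 6 to 13, 13 were higher and 2 lower, with a median of 2.40. With the lines summed 4 were lower, and also without mCaPS embryoid body replicate 2 or mCaPS aggregate replicate 1 or 2. On day 0, 9 of 19 were lower in the aggregate protocol and 0 higher, with a median of -1.76. After subtraction 16 of 23 tested were higher and 3 lower. Hoxb6 stood at 2.91, 5.39 and 2.14 CPM in mCaPS aggregates, at 25.2, 30.4 and 27.2 CPM in KO-labelled ones and at most 0.384 CPM in embryoid bodies. Hoxb8 ran the same way, with 2.29 to 4.79 CPM, 34.3 to 38.9 CPM and at most 0.426 CPM. The list as a whole went the other way between lines. In the test between lines 4 of the 19 were higher in mCaPS and 0 lower (7.50% and 4.69% of all genes), with a median of 1.61. Hoxd8 and Hoxc9 had log2 differences of 5.52 and 7.52 in mCaPS and 1.85 and 2.2 in KO-labelled cells. In embryoid bodies Hoxc9 had only 9 counts. In group 13, at the tail end of the clusters, Hoxa13 and Hoxb13 were higher and Hoxd13 and Hoxc13 lower. Hoxd13 stood at 0.543 to 1.19 CPM in mCaPS embryoid bodies, at 4.58 to 8.18 CPM in KO-labelled ones and at 0.0333 to 1.12 CPM in aggregates (log2 difference -2.48 ± 0.42, adjusted p = 2.35e-04). In WT cells alone neither Hoxd13 nor Hoxc13 was called.

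**Figure D2:**
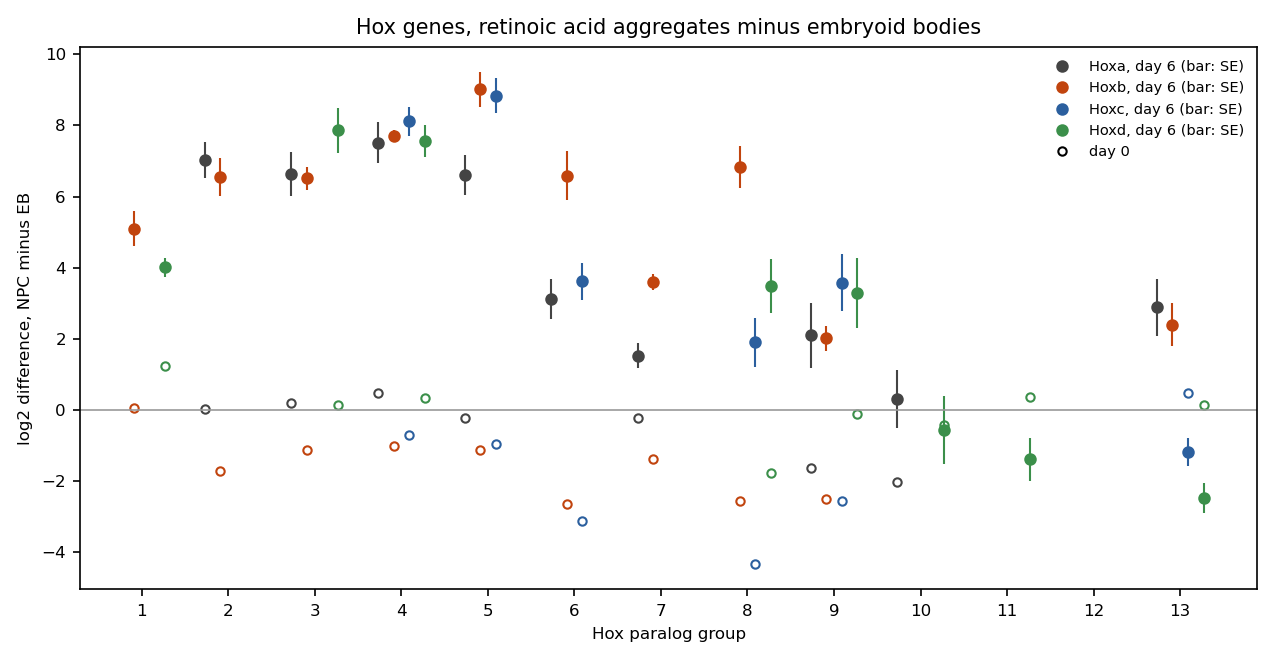
Difference between aggregates and embryoid bodies (log2) for tested Hox genes by paralog group, coloured by cluster; filled points with bars are day 6 values and their SE, open points day 0 values. Groups 1 to 5 lie at 4.01 or above on day 6, and their day 0 values lie between -1.72 and 1.25.

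Embryoid bodies still carried much of the stem cell programme on day 6, and the aggregates held little of it. Of 24 core and naive pluripotency genes, 19 were lower in the aggregates and 0 higher, with a median log2 difference of -2.44. After day 0 was subtracted, 16 were lower and 2 higher. In WT cells 16 were lower and 0 higher, with a median of -2.57. The summed level of the list was 3570 to 4117 CPM in embryoid bodies and 691 to 1178 CPM in aggregates.

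Pou5f1 (chr17:35506032-35510777, plus strand), which encodes the pluripotency factor OCT4, stood at 813, 736 and 847 CPM in mCaPS embryoid bodies and at 682, 706 and 787 CPM in KO-labelled ones. These values lay within the day 0 range of the aggregate protocol, 610 to 863 CPM, and day 0 cells of the embryoid body protocol held 757 to 1970 CPM. Among aggregates it stood at 7.61, 21.0 and 12 CPM in mCaPS and at 23.2, 23.9 and 27.9 CPM in KO-labelled cells (log2 difference -5.35 ± 0.29, adjusted p = 5.24e-08). Tdgf1, a co-receptor for Nodal, stood at 252 to 353 CPM and 1.63 to 2.82 CPM, a log2 difference of -7.23 ± 0.15. Fgf4, a growth factor of pluripotent cells, stood at 61.9 to 176 CPM and 1.36 to 3.87 CPM. Nanog, of the same network, had a log2 difference of -3.18 ± 0.40. Sox2, shared by pluripotent and neural cells, was not called (adjusted p = 0.0831), and with the lines summed it was lower (log2 difference -0.90, adjusted p = 0.0376). It stood at 86.0 to 194 CPM in embryoid bodies and at 112, 146 and 143 CPM in KO-labelled aggregates, but at 10.3, 72.5 and 15.7 CPM in mCaPS ones. Without KO-labelled embryoid body replicate 2 it was called, at -1.49. Tfcp2l1, a naive factor, was not called either, at 35.0 to 100 CPM and 27.6 to 67.0 CPM, and with the lines summed it was lower (-0.42, adjusted p = 0.0267).

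Genes of the formative and primed epiblast, the state that follows naive pluripotency, formed the other large block of embryoid body genes. Of 15, 10 were lower in the aggregates and 3 higher, with a median of -2.64. Fgf5, the classic epiblast marker, stood at 114, 120 and 93.8 CPM in mCaPS embryoid bodies and at 85.8, 81.0 and 51.7 CPM in KO-labelled ones. The aggregates held 0.754 to 2.16 CPM of it (log2 difference -6.01 ± 0.18, adjusted p = 3.60e-10). Otx2, a head and epiblast homeobox gene, stood at 66.7 to 201 CPM and 0.249 to 1.36 CPM (log2 difference -7.29 ± 0.45). Dnmt3b, a de novo DNA methyltransferase, stood at 977 to 2534 CPM and 36.4 to 63.2 CPM. Its embryoid body levels lay above those of day 0 in the same protocol, 423 to 863 CPM, in all 6 libraries. The 3 genes that were higher in the aggregates were Sox4 (log2 difference 1.18 ± 0.10), Tead2 (0.54 ± 0.08) and Car4 (1.27 ± 0.39), and the last 2 were not called in WT cells.

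Primitive streak genes, which mark the start of gastrulation, were lower in the aggregates in 13 of 20 cases and higher in 3, with a median of -3.53. Embryoid body replicates differed widely among themselves here. T, the streak factor Brachyury, stood at 4.79, 24.5 and 12.8 CPM in mCaPS embryoid bodies and at 3.77, 78.4 and 23.2 CPM in KO-labelled ones. Aggregates held it at 0.199 to 0.377 CPM, below every embryoid body library (log2 difference -6.32 ± 0.77, adjusted p = 2.40e-05). Eomes stood at 24.3 to 111 CPM and 0.598 to 1.34 CPM, and Mixl1 at 1.17 to 21.4 CPM and 0.0833 to 0.251 CPM. Cer1, a secreted Nodal antagonist, had 4 counts in all 6 aggregate libraries together. The 3 higher genes were Cdx1, Lhx1 and Wnt3a, which are also expressed in caudal or neural tissue, with log2 differences of 3.53 ± 0.97, 1.28 ± 0.41 and 3.17 ± 0.66. In WT cells the value of Lhx1 was -1.16 (adjusted p = 0.156). For T, Eomes and Mixl1 the single day 0 libraries also ranged widely, from 0.602 to 83.9 CPM for T in the embryoid body protocol.

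**Figure D3:**
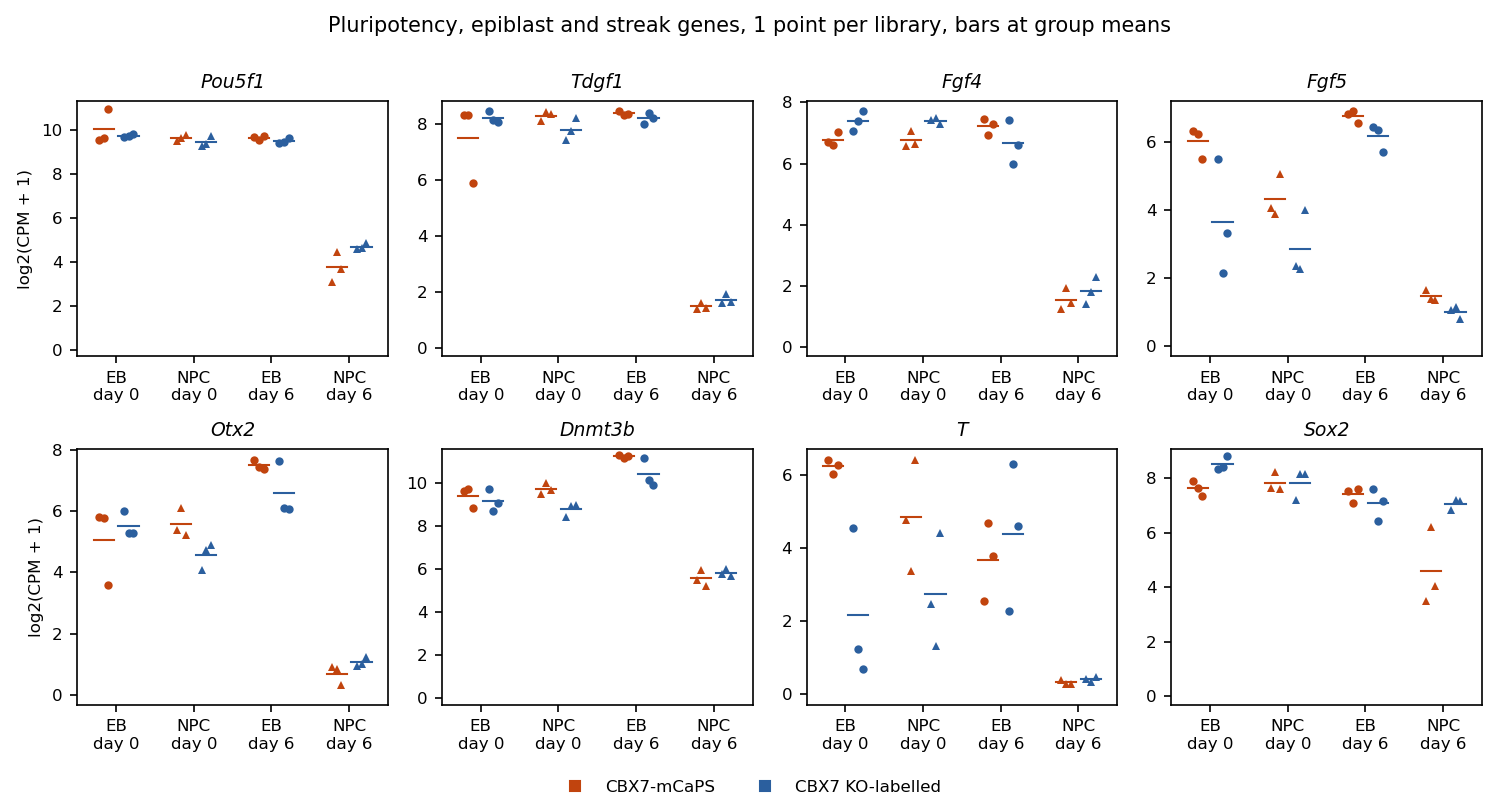
Levels of 8 pluripotency, epiblast and streak genes as log2(CPM + 1) in each library of days 0 and 6, laid out as for the retinoic acid genes. Day 6 aggregates lie below day 6 embryoid bodies for every gene but Sox2, for which KO-labelled aggregates, at 112 to 146 CPM, lie among the embryoid bodies.

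More neural progenitor genes were higher than lower in the aggregates, and the mean level of the list lay above the embryoid bodies in all 3 KO-labelled aggregates but in 1 of the 3 mCaPS ones. Of 26 tested, 14 were higher and 2 lower, with a median of 1.6. In mCaPS cells alone 12 were higher and 5 lower, with a median of 0.9, and in KO-labelled cells alone 16 and 3, with a median of 2.05. After day 0 was subtracted, 11 of 27 were higher and 4 lower, and without day 0 mCaPS embryoid body replicate 3 the counts were 8 and 5. In WT cells 16 of 27 were higher and 1 lower, with a median of 2.30. The mean log2(CPM + 1) over the list was 2.21 to 2.47 in embryoid bodies. In KO-labelled aggregates it was 4.08, 4.03 and 4.03, and in mCaPS ones 2.28, 3.54 and 2.13. In the test between lines 3 of 26 genes were lower in mCaPS and 0 higher. Without mCaPS aggregate replicate 2 there were 19 and 0, and with same-numbered libraries of the lines paired 8 and 2.

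Pax6, a factor of the ventricular zone of the neural tube, stood at 18.9, 89.8 and 9.94 CPM in mCaPS aggregates and at 169, 153 and 157 CPM in KO-labelled ones. Embryoid bodies held 4.46 to 11.8 CPM. Zic1, of the dorsal neural tube, stood at 3.21, 28.2 and 3.09 CPM and at 43.9, 52.7 and 51.8 CPM in the same order, against 1.22 to 2.73 CPM (log2 difference 3.73 ± 0.60). In WT aggregates it stood at 80.0, 139 and 83.1 CPM. Pax3 and Pax7, of the dorsal neural tube and neural crest, stood at 39.8 to 44.5 CPM and 13.1 to 23.9 CPM in KO-labelled aggregates, and at most at 9.16 CPM and 1.98 CPM in mCaPS ones. Dbx1, of intermediate progenitors, stood at 4.79, 31.4 and 2.69 CPM and at 63.2, 84.0 and 58.2 CPM, with 26 counts in the 6 embryoid body libraries. Irx3, a progenitor gene of the hindbrain and spinal cord, was more even, at 35.1 to 57.3 CPM in mCaPS and 71.5 to 109 CPM in KO-labelled aggregates, against 1.51 to 3.88 CPM. The 2 lower genes were Hes6 (log2 difference -1.98 ± 0.19) and Dll3 (-2.46 ± 0.42), both of the Notch pathway.

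Neuronal genes were called in both directions in these 2 lines. Of 27 tested, 12 were higher and 9 lower in the aggregates (31.5% and 31.1% of all genes), with a median of 0.70. The lower count was near the share of all genes. In WT cells 14 of 27 were higher and 2 lower (13.1% and 12.1% of all genes), with a median of 1.20. The lower ones included structural genes of neurons that these stem cells already expressed on day 0. Tubb3, a neuronal tubulin, stood at 60.9 to 92.1 CPM in day 0 cells of the aggregate protocol and at 28.1 to 122 CPM in those of the embryoid body protocol. On day 6 it stood at 38.8, 37.4 and 39.0 CPM in mCaPS embryoid bodies and at 55.5, 50.9 and 51.4 CPM in KO-labelled ones. In the aggregates it stood at 1.11, 1.33 and 0.797 CPM in mCaPS and at 9.69, 7 and 6.62 CPM in KO-labelled cells (log2 difference -3.84 ± 0.41, adjusted p = 8.85e-06). The 2 lines differed in this by -2.35 on the log2 scale (adjusted p = 6.94e-04). Ina, an intermediate filament gene, gave the same picture, with 59.7 to 73.0 CPM in embryoid bodies, 0.765 to 2.79 CPM in mCaPS aggregates and 6.78 to 9.24 CPM in KO-labelled ones. Elavl3, an RNA-binding protein of neurons, stood at 6.31 to 20.1 CPM, 0.416 to 1.33 CPM and 3.14 to 4.46 CPM. In WT cells these gaps were smaller: Tubb3 stood at 34.9 and 32.0 CPM in embryoid bodies and at 43.6, 13.5 and 19.0 CPM in aggregates, and neither it, Elavl3 nor Neurod1 was called there.

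Pou3f2, of neuronal progenitors, stood at 2.10, 10.2 and 1.29 CPM in mCaPS aggregates and at 61.3, 37.7 and 48.0 CPM in KO-labelled ones, against 0.272 to 1.02 CPM in embryoid bodies (log2 difference 4.80 ± 0.69). Mnx1, of motor neurons, stood at 1.74 to 13.7 CPM in the aggregates and 0.296 to 0.967 CPM in embryoid bodies (log2 difference 3.86 ± 0.42). Chrna3, a nicotinic receptor subunit, had a log2 difference of 4.37 ± 0.49. Gap43 and Phox2a were not called, at 4.78 to 13.2 CPM and 1.36 to 5.53 CPM over the 12 libraries.

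Position along the neural axis was read from 2 lists beside the Hox genes. Of 14 forebrain and midbrain genes, 3 were higher and 3 lower, a smaller share than among all genes, with a median of -0.56. Besides Otx2, the lower ones were Otx1 (log2 difference -1.45 ± 0.28) and En2 (-2.85 ± 0.37), and the higher ones were Emx2, Dmbx1 and Lhx2. Of 12 hindbrain and caudal neural genes, 6 were higher and 2 lower, with a median of 0.78. Zfp503 stood at 0.803 to 5.22 CPM in embryoid bodies and 31.0 to 66.4 CPM in aggregates (log2 difference 4.56 ± 0.39). Egr2, of rhombomeres 3 and 5, was lower, at 0.375 to 0.502 CPM against 0.913 to 1.62 CPM. Fgf8, a signal of the mid-hindbrain border and of the streak, was lower too (log2 difference -4.95 ± 0.58). In WT cells alone neither En2 nor Egr2 was called, and in mCaPS cells alone Dmbx1 was not.

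Neural crest genes were higher in the aggregates in 8 of 11 cases and lower in 2, with a median of 1.73. Ednrb, the endothelin receptor of crest and glia, stood at 19.4, 27.3 and 22.3 CPM in mCaPS aggregates and at 136, 104 and 111 CPM in KO-labelled ones, against 0.13 to 1.04 CPM (log2 difference 6.94 ± 0.49). Snai2, which mesodermal cells also express, stood at 19.5, 14 and 28.9 CPM in mCaPS aggregates and at 2.83, 3.17 and 5.11 CPM in KO-labelled ones. Foxd3, shared by crest and pluripotent cells, was lower in the aggregates, at 0.0996 to 0.375 CPM against 14.1 to 60.9 CPM (log2 difference -7.34 ± 0.41).

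The lines parted in the aggregates over mesoderm, blood and endoderm. In the test of whether the day 6 difference was the same in both lines, 2060 of 16892 genes were called (12.2%), 1267 higher (7.50%) and 793 lower (4.69%) in mCaPS. Less its day 0 value the same test called 452 of 17485 genes (2.59%). With same-numbered libraries of the lines paired the counts were 2503 and 694. Of 26 mesoderm and cardiac muscle genes, 16 were higher in mCaPS and 0 lower. For blood and endothelium the counts were 11 and 0 of 22, for endoderm 14 and 0 of 23, and for trophoblast and simple epithelium 8 and 0 of 14. The endoderm count was 9 without mCaPS embryoid body replicate 2 or 3. Less the day 0 value the higher counts were 11, 8, 8 and 6, in the same order. Each library left out in turn moved the total to between 980 and 3574 genes. It was 3569 without mCaPS aggregate replicate 2 and 3574 without KO-labelled embryoid body replicate 1.

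Line by line, 23 of the 26 mesoderm genes were higher and 2 lower in mCaPS aggregates than in mCaPS embryoid bodies (30.8% and 29.3% of all genes, 60.1% in all), with a median log2 difference of 4.35. In KO-labelled cells 9 were higher and 3 lower (25.8% and 26.5%, 52.4% in all), with a median of 0.29. In WT cells 6 were higher and 2 lower, with a median of 0.81. The mean log2(CPM + 1) of the list was 3.94, 3.50 and 4.21 in mCaPS aggregates, 1.77, 2.03 and 2.29 in KO-labelled ones and 1.23 to 1.72 in embryoid bodies. All 3 mCaPS aggregates lay above the rest, whereas in the neural progenitor list replicate 2 lay between. Fibroblast genes, which mesenchymal cells share, moved with this: their mean log2(CPM + 1) was 2.84 to 3.67 in mCaPS aggregates, 2.21 to 2.49 in KO-labelled ones and 2.17 to 3.16 in embryoid bodies, and 7 of 19 were higher in mCaPS in the test between lines. That count was 3 without mCaPS embryoid body replicate 3 and 4 without its replicate 2 or KO-labelled aggregate replicate 1. The part of the fibroblast genes in the result was not tested.

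Gata4 (chr14:63198914-63245271, minus strand), a factor of heart and endoderm, stood at 7.76, 5.97 and 5.75 CPM in mCaPS embryoid bodies and at 7.79, 35.8 and 16.8 CPM in KO-labelled ones. Among aggregates it stood at 373, 154 and 494 CPM in mCaPS and at 8.60, 11 and 14.5 CPM in KO-labelled cells. The lines differed by 6.56 on the log2 scale (adjusted p = 7.68e-04), and the difference over both lines was not called (adjusted p = 0.178), though it was with the lines summed (3.72, adjusted p = 0.00200). WT aggregates, at 14.8, 28.8 and 31.9 CPM, were nearer to the KO-labelled ones. Gata6, a related factor, stood at 170, 97.6 and 256 CPM and at 7.5, 10.7 and 14.9 CPM in the same order. Pdgfra, a receptor of early mesoderm and primitive endoderm, stood at 186, 96.5 and 318 CPM in mCaPS aggregates, at 3.78, 6.13 and 13.0 CPM in KO-labelled ones, and at 2.15 to 35.5 CPM in embryoid bodies. Foxf1, of lateral plate mesoderm, stood at 110, 36.8 and 78.4 CPM, at 3.43, 5.55 and 7.39 CPM, and at 0.276 to 1.08 CPM. Unlike Gata4 and Pdgfra, it was higher in the aggregates in either line taken alone (log2 differences 7.65 and 2.48). Tbx5, of the heart and forelimb, stood at 14, 3.98 and 20.3 CPM in mCaPS aggregates and at no more than 0.670 CPM in KO-labelled aggregates and in embryoid bodies of both lines. WT aggregates held 0.355, 1.48 and 1.24 CPM.

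Some mesodermal genes were higher in both lines. Meox1, of the somites, stood at 31.2, 19.1 and 17.0 CPM in mCaPS aggregates and at 21.7, 10.6 and 21.3 CPM in KO-labelled ones, against at most 0.213 CPM (log2 difference 7.64 ± 0.49). Foxc2, of paraxial mesoderm, stood at 14.6 to 19.9 CPM and 8.84 to 19.5 CPM, against at most 0.724 CPM (log2 difference 5.81 ± 0.46). Osr1, of intermediate mesoderm, stood at 6.87 to 30.9 CPM and 2.35 to 6.74 CPM, against at most 0.128 CPM. Tcf15, a somite gene that pluripotent cells also express, and Myh6, a cardiac myosin, were the 2 lower genes, with log2 differences of -2.67 ± 0.27 and -1.57 ± 0.37.

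Embryonic globins were highest in mCaPS aggregate replicates 1 and 3. Hba-x stood at 140, 6.08 and 104 CPM in mCaPS aggregates, at 0.331, 1.20 and 2.51 CPM in KO-labelled ones and at 0.0731 to 2.23 CPM in embryoid bodies. Hbb-bh1 stood at 123, 6.50 and 99.6 CPM, at 0.497 to 2.18 CPM and at 0.219 to 1.75 CPM. The lines differed by 8.67 and 8.03 on the log2 scale (adjusted p = 0.00793 and 0.00490), and without KO-labelled embryoid body replicate 1 the adjusted p of Hba-x was 0.0578. The mCaPS aggregate replicate 2 held far less globin RNA than replicates 1 and 3. In WT aggregates Hba-x stood at 0.0507, 4.54 and 11.85 CPM and Hbb-bh1 at 0, 4.67 and 14.9 CPM, so that WT replicate 3 was above mCaPS replicate 2. Kdr, a receptor of endothelium and its precursors, stood at 132, 51.2 and 133 CPM, at 12.3, 8.37 and 25.0 CPM and at 2.19 to 17.7 CPM. Over both lines, 10 of 22 blood and endothelium genes were higher and 2 lower, with a median of 1.52.

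Among endoderm genes, 10 of 23 were higher and 3 lower over both lines, with a median of 1.85, and with the lines summed 16 and 5. Rbp4, the plasma retinol carrier made by endoderm and liver, stood at 95.3, 55.4 and 116 CPM in mCaPS aggregates, at 2.93, 4.76 and 6.11 CPM in KO-labelled ones and at 0.711 to 1.27 CPM in embryoid bodies. The lines differed by 4.26 (adjusted p = 7.68e-04). Ttr, which carries RBP4 in plasma, stood at 23.5, 13.3 and 23.4 CPM, at 0.165, 0.290 and 0.879 CPM and at no more than 0.136 CPM, except for KO-labelled embryoid body replicate 2 at 2.90 CPM. Afp, of visceral endoderm and liver, stood at 7, 5.46 and 7.15 CPM and at 0.661, 1.12 and 1.09 CPM, with at most 0.173 CPM in embryoid bodies. Cubn, the endocytic receptor of visceral endoderm, chosen after its values were seen, had another order. It stood at 23.1, 459 and 141 CPM in KO-labelled embryoid bodies, at 10.3, 14.5 and 12 CPM in mCaPS ones, and at 2.33 to 22.7 CPM in aggregates.

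**Figure D4:**
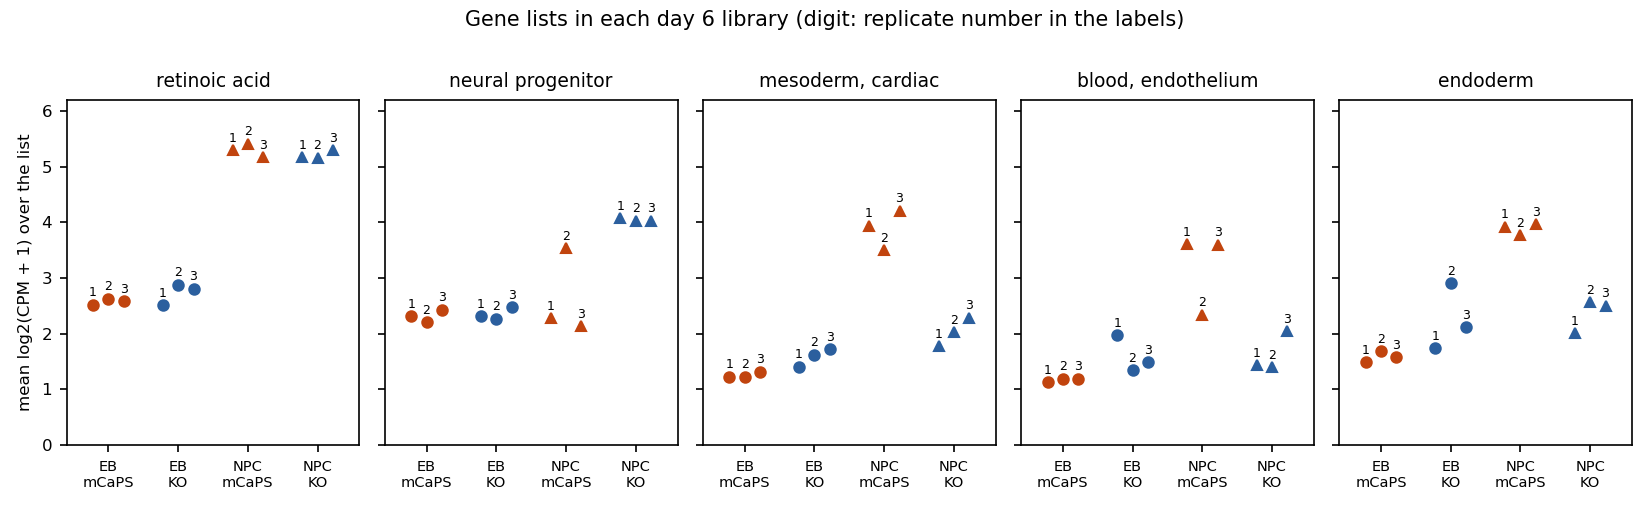
Mean log2(CPM + 1) over 5 gene lists in each of the 12 day 6 libraries, labelled with the replicate number. The mean of the retinoic acid list separates the protocols alike in both lines, though single genes of it differ between lines. The mesoderm, blood and endoderm lists are high in mCaPS aggregates. The neural progenitor list is high in KO-labelled aggregates, with mCaPS replicate 2 at 3.54.

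Among the 5 signalling lists, that of fibroblast growth factors (FGFs) had the median farthest from 0. Of 18 genes, 12 were lower in the aggregates and 3 higher, with a median of -2.11. The lower genes included the ligands Fgf4, Fgf5 and Fgf8 and targets of the pathway. Spry4, a feedback inhibitor, stood at 92.1 to 169 CPM in embryoid bodies and 1.29 to 3.69 CPM in aggregates (log2 difference -5.60 ± 0.22, adjusted p = 3.88e-09). Etv4, a transcription factor induced by FGF, stood at 33.1 to 69.3 CPM and 1.22 to 2.66 CPM (log2 difference -4.60 ± 0.25). The 3 higher genes were receptors. Fgfr2 stood at 11.4 to 14.2 CPM and 157 to 215 CPM with nearly the same value in either line (log2 difference 3.83 ± 0.09, adjusted p = 3.45e-11), and Fgfr3 and Fgfr4 had log2 differences of 4.17 ± 0.29 and 2.30 ± 0.22. Fgfr1 was not called, at 87.7 to 246 CPM over the 12 libraries.

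Hedgehog genes were higher in 9 of 14 cases and lower in 1, with a median of 0.83. The co-receptors led. Gas1 stood at 6.21 to 8.54 CPM and 134 to 242 CPM (log2 difference 4.54 ± 0.16, adjusted p = 1.20e-09). Boc stood at 3.33 to 7.56 CPM in embryoid bodies, at 37.7, 55.3 and 45.2 CPM in mCaPS aggregates and at 129, 111 and 123 CPM in KO-labelled ones, and the lines differed by -1.81 (adjusted p = 0.00266). Gli1, a target and effector of the pathway, stood at 48.5, 46.0 and 32.4 CPM in mCaPS aggregates and at 8.02, 8.51 and 10.3 CPM in KO-labelled ones, with 12.1 to 16.9 CPM in embryoid bodies. It was higher in the aggregates in mCaPS and lower in KO-labelled cells (log2 differences 1.54 and -0.67), and it was not called over both lines, but was with the lines summed (0.84, adjusted p = 0.00222).

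BMP genes were higher in 15 of 24 cases and lower in 4, with a median of 1.04. Bmp7 stood at 2.31 to 4.62 CPM and 37.8 to 57.3 CPM (log2 difference 3.73 ± 0.17), alike in both lines. In the test between lines 11 of the 24 were higher in mCaPS and 0 lower. That count was 7 without mCaPS embryoid body replicate 2, 6 without KO-labelled aggregate replicate 1 and 3 less its day 0 value. WNT genes, with 10 higher and 5 lower of 26, and Nodal genes, with 6 higher and 7 lower of 15, were mixed. Lefty1, Nodal and Gdf3, ligands or antagonists of the Nodal pathway active in pluripotent cells, were lower in the aggregates, with log2 differences of -5.78 ± 0.47, -3.65 ± 0.34 and -4.40 ± 0.32. Wnt1, of the dorsal midline, had 4 counts in all embryoid body libraries and stood at 1.28, 11.6 and 0.448 CPM in mCaPS aggregates and at 10.9, 13.2 and 12.4 CPM in KO-labelled ones.

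The chromodomain genes of Polycomb complex 1 differed in opposite directions. Cbx7 was lower in the aggregates, with a log2 difference of -1.94 ± 0.14 (adjusted p = 2.84e-07), and so was Cbx6, at 35.9 to 46.7 CPM against 82.3 to 102 CPM (-1.16 ± 0.08). The span of Cbx6 overlaps that of Npcd on the same strand. Cbx8 stood at 0.987 to 1.97 CPM in embryoid bodies and at 3.66 to 7.75 CPM in aggregates (log2 difference 2.02 ± 0.25). Cbx2 stood at 48.1 to 63.4 CPM and 80.8 to 104 CPM (0.63 ± 0.07). In each of these 4 the 6 aggregate libraries lay wholly on one side of the embryoid bodies. Of all genes, 18.5% lay wholly above and 20.1% wholly below. Of 20 genes of complex 1, 11 were higher and 7 lower. Phc1, a subunit high in pluripotent cells, stood at 458 to 726 CPM and 67.7 to 99.1 CPM (log2 difference -2.88 ± 0.14). Of 12 genes of complex 2, 2 were higher and 7 lower, with a median of -0.22, and 1 each way after day 0 was subtracted. Ezh2 was higher (0.31 ± 0.09), and Suz12 and Jarid2 were lower (-0.40 ± 0.08 and -1.01 ± 0.09).

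Of the 24 genes with the largest differences, 12 were members of the lists, 8 of the 12 highest and 4 of the 12 lowest. Among the 12 highest were Hoxb4, Hoxb5, Hoxc4, Hoxc5, Hoxd3, Stra8, Meox1 and Dbx1, most of them described above. The others were Upk3b, Vit, Serpinf2 and Aldh1a7. Upk3b, of mesothelium and urothelium, stood at 68.2, 29.4 and 165 CPM in mCaPS aggregates and at 14.6, 15.8 and 9.69 CPM in KO-labelled ones, with 21 counts in all embryoid bodies. Serpinf2, a plasma protease inhibitor of the liver, stood at 48.8, 32.7 and 39.7 CPM and at 2.65, 1.93 and 3.56 CPM, with 18 counts. Vit and Aldh1a7, with 6 and 22 counts in embryoid bodies, had the other order: Vit stood at 0.398 to 1.83 CPM in mCaPS aggregates and 15.1 to 26.9 CPM in KO-labelled ones, and Aldh1a7 at 2.89 to 18.0 CPM and 35.2 to 47.2 CPM. Among the 12 lowest, besides Tdgf1, Otx2, Foxd3 and T, were Trh, Enpp2, Platr10, Grm6, Foxi3, Tmem154, Cbr3 and Syt4. Trh, the precursor of thyrotropin releasing hormone, stood at 393 to 661 CPM in embryoid bodies and 1.59 to 3.75 CPM in aggregates (log2 difference -7.24 ± 0.23). Enpp2, which encodes the lipid enzyme autotaxin, stood at 76.9 to 174 CPM and 0.754 to 2.64 CPM (-6.52 ± 0.19).

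Among the remaining lists, cell cycle and hypoxia genes were mixed, and more germline genes were lower than higher. Of all genes, 31.5% were higher and 31.1% lower. Of 20 cell cycle genes 5 were higher and 7 lower, with a median of -0.08. Of 15 hypoxia and glycolysis genes 3 were higher and 3 lower. Of 15 p53 targets and CDK inhibitors 1 was higher and 5 lower, and of 16 immediate early genes 1 was higher and 8 lower. Of 16 germline genes 10 were lower and 1 higher, with a median of -1.32. After day 0 was subtracted 9 germline genes were lower and 1 higher, and 3 and 1 immediate early genes (18.7% and 17.8% of all genes). On day 0 itself 4 immediate early genes were lower and 1 higher, with a median of -0.78. The immediate early list is therefore not taken to stand apart. Trophoblast and simple epithelium genes were divided, with 5 higher and 5 lower of 14 and 8 higher on day 0. Surface ectoderm genes were likewise divided, with 4 and 3 of 9. Of 10 genes of cleavage stage cells 2 were higher and 0 lower. On day 0, 6 of these 10 were lower in the aggregate protocol, and after subtraction 8 were higher. In WT cells 5 of 7 cleavage stage genes were higher and 0 lower on day 6. Without KO-labelled embryoid body replicate 2 the lower hypoxia and glycolysis genes were 5, and without mCaPS embryoid body replicate 1 the higher immediate early genes were 3.

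**Figure D5:**
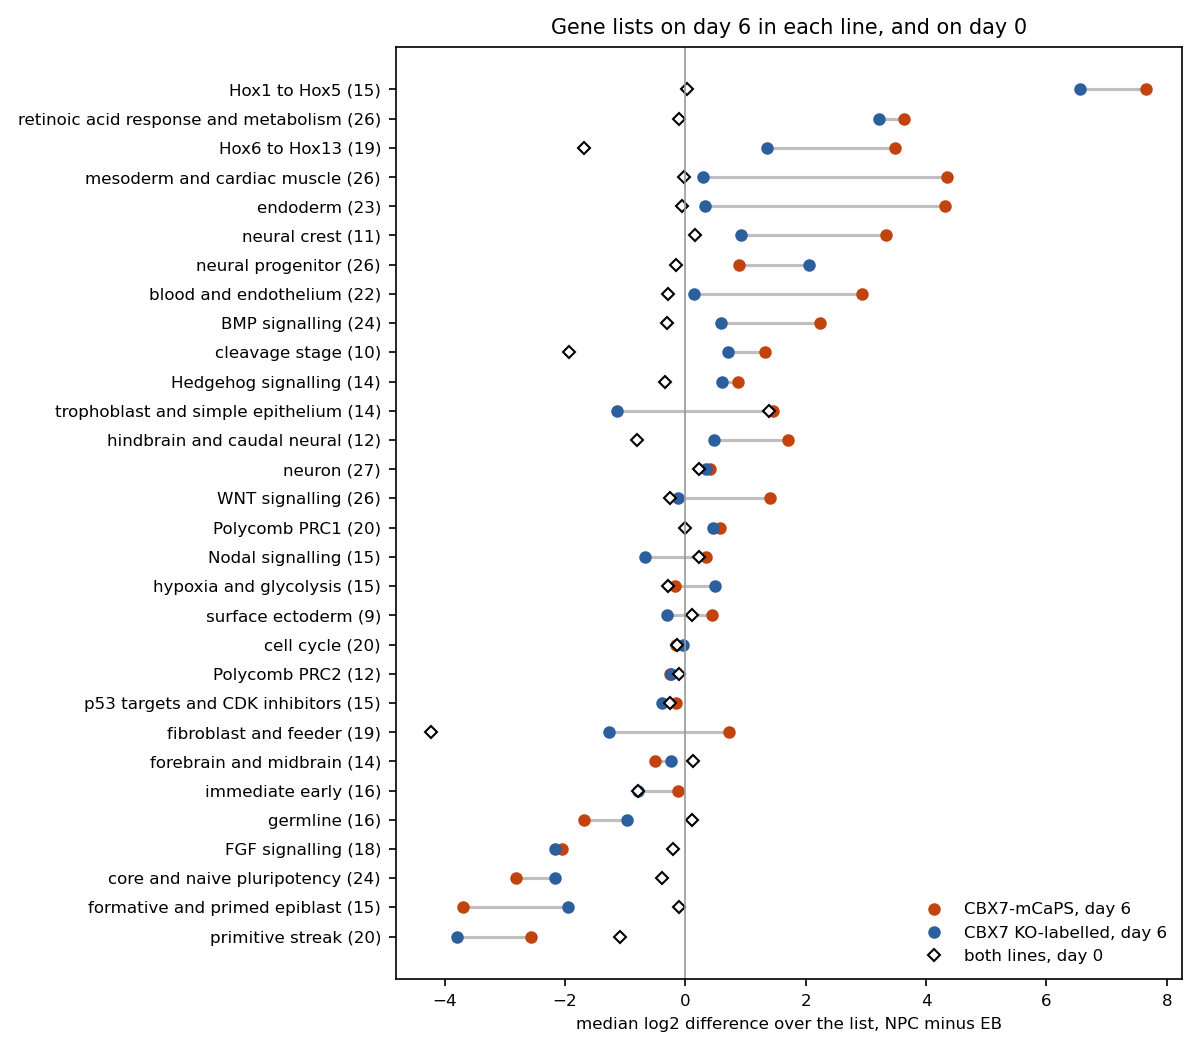
Median difference between aggregates and embryoid bodies (log2) over each of 30 gene lists on day 6 in mCaPS and in KO-labelled cells, and on day 0 over both lines, with the number of genes tested in parentheses. The retinoic acid and Hox1 to Hox5 lists lie far to the right in both lines, and the mesoderm, endoderm and blood lists lie near 0 in KO-labelled cells.

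Later days are given beside day 6 without a comparison, since the protocols were sampled on day 8 for aggregates and day 10 for embryoid bodies. Rarb stood at 166 to 265 CPM in day 8 aggregates and at 7.02 to 35.8 CPM in day 10 embryoid bodies. Hoxb4 stood at 45.0 to 142 CPM and 3.18 to 7.86 CPM, and Pou5f1 at 3.15 to 15.0 CPM and 45.1 to 382 CPM. Gata4 stood at 11.2 to 328 CPM in day 8 aggregates and 52.9 to 113 CPM in day 10 embryoid bodies, and Tubb3 at 1.70 to 195 CPM and 6.87 to 29.6 CPM. The wide day 8 ranges of Gata4 and Tubb3 cover both lines.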

How the data were processed

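The values are whole-number counts per gene that the authors deposited in one table for each protocol. Per the submitters' processing notes, the genome build was mm10 and the tools included STAR 2.7.0 and featureCounts 1.6.3, together with cutadapt 1.14, HOMER 4.10.4 and edgeR, with no role or order given. Per the labels' protocols the RNA was depleted of ribosomal RNA and the cDNA kit kept strand, and whether the counting used strand is not given in the sources used here. On day 6, 77.3 to 82.8% of the counts from 1 to 20 were even, as when both mates of a pair are counted, so that intervals from counting error would be too narrow and none is given. Of 24984 genes per table, 24958 were shared by name and 26 were left out. Another 9 columns matched no sample and were not used.

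The 12 libraries of day 6 were fitted with edgeR 4.0.16 in R 4.3.3, with limma 3.58.1: TMM scaling, filterByExpr, a robust quasi-likelihood F test (two-sided) with line as covariate, and Benjamini-Hochberg adjustment over all genes tested. The same fit was made on day 0, on 24 libraries for day 6 less day 0, and for the difference between lines. Levels are CPM with TMM scaling over 36 libraries, log2 differences are fitted with a prior count of 0.125, and each is the aggregate value less the embryoid body value. WT embryoid body replicate 1 was left out, with 13.1 M counts (M, 1e6) and 42.8% even counts against 73.5 and 75.4% in replicates 2 and 3. Alternatives included DESeq2 1.42.0, other filters and scaling, and each library left out in turn. The fits were tested on simulated data. Deviations from the group means correlated between same-numbered libraries of the 2 lines in a protocol (0.21 to 0.44 on day 6, 0.11 to 0.72 on day 0), a pairing seen in the data and not stated in the labels. Alternatives added after the data were seen summed each such pair to 1 sample (3 against 3) or, between lines, used it as a block. On day 0 in the embryoid body protocol, mCaPS replicate 2 correlated more with KO-labelled replicate 1 (0.26) than with replicate 2 (0.11).

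The members, the 30 lists and the tests were chosen with earlier results of these data known. Genes are named by rule: the CBX genes, the 12 highest and 12 lowest genes called both before and after subtraction of day 0, with at least 5 CPM and no overlap, the 6 called genes of largest difference and 2 uncalled genes of highest level in each list, members called against their list, and the 5 genes that differed most between lines. Rara, Rxra, Rxrb, Cyp26a1, Cyp26c1, Dhrs3, Aldh1a2, Stra6, Crabp1, Crabp2, Meis2, Tgm2, Hoxa13, Hoxb13, Nanog, Pax6, Gata6 and Cubn fall outside this rule and were named after their values were seen. A few genes are not reported here.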

Additional observations from a re-analysis of the deposited data

Results flagged for a closer look

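The difference between aggregates and embryoid bodies was not the same in the 2 lines for 2060 genes, by edgeR's test of that difference with Benjamini-Hochberg adjustment. The values that follow are the log2 difference in mCaPS less that in KO-labelled cells. Among mesodermal and endodermal regulators it was 6.56 for Gata4, 5.65 for Gata6, 7.07 for Pdgfra, 5.17 for Foxf1 and 6.13 for Tbx5. For the embryonic globins Hba-x and Hbb-bh1 it was 8.67 and 8.03, and for the secreted plasma proteins Rbp4, Afp and Ttr it was 4.26, 5.42 and 10.06. It was negative for the neuronal genes Tubb3, Ina and Elavl3, at -2.35, -2.38 and -3.03. Of the retinoic acid target Tgm2 it was 2.25 and of Cdx2, a caudal and trophoblast factor, 5.68. Boc and Gli1 of the Hedgehog pathway went opposite ways, with -1.81 and 2.21.

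Of the genes above, Afp and Tbx5 had 16 and 38 counts in the 6 embryoid body libraries, and Ttr had under 10 in 5 of them. The remaining 3 genes rest on few counts as well. Plac1, of trophoblast, had 22 counts in the 6 embryoid body libraries and 255 in the 6 aggregate libraries (8.63). AV026068 had 12 and 130 counts (11.67) and A530016L24Rik 21 and 69 (8.91), and both were at 0 in all 3 KO-labelled aggregates, so these fitted values depend on the count added before the logarithm. Less their day 0 values, 7 of these differences were no longer called (adjusted p from 0.0668 to 1). That of Afp was then 0.73 and that of Boc -1.28, whereas those of Ina (-2.33), Ttr (8.68), Plac1 (10.1), AV026068 (9.21) and A530016L24Rik (8.99) stayed large. With same-numbered libraries of the 2 lines also paired, Ina was called (-2.70, adjusted p = 0.0185) and Hba-x was not (8.77, adjusted p = 0.113).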

How the results depend on the processing

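The day 6 count of 10575 genes was 9947 to 10568 without any 1 library, and 4032 in WT cells, of which 3508 were also called in mCaPS and KO-labelled cells and 29 the opposite way. The day 0 count of 1546 was 2779 by DESeq2 and 854 to 3081 without 1 library: 3081 without mCaPS embryoid body replicate 3, 932 and 953 without KO-labelled embryoid body replicates 2 and 3, 854 without mCaPS aggregate replicate 1, and 1028 and 1002 without KO-labelled aggregate replicates 1 and 2. The day 0-subtracted count of 6389 was 5868 to 7984 without 1 library. The count of genes that differed between lines, 2060, was 452 less its day 0 value and 980 to 3574 without 1 library, with 3574 without KO-labelled embryoid body replicate 1, 3569 without mCaPS aggregate replicate 2 and at most 1296 without any other. The cause was not tested. Replicate numbers did not pair the libraries of a line between protocols, since their correlations were -0.12 to 0.09 on day 6, and with that replicate block the counts were 9546 on day 6, 1213 on day 0, 5125 after subtraction and 1307 between lines. On day 6 the same numbers went together between the 2 lines of a protocol, and on day 0 less clearly in the embryoid body protocol. The numbers were therefore also used to block the 2 lines within a protocol. With this replicate block, added after the data were seen, the counts were 10532, 985, 5960 and 2503, of which 9926, 888, 5429 and 1844 were shared with the first fits, and 694 between lines less day 0. It ended no call among the named genes on day 6, where 156 were called, and none of the named line differences of day 6. Of 167 named genes 140 were called on day 6, and 138 to 144 without 1 library. The log2 difference changed sign for Cdx2 (-2.37), Gli1 (-0.673) and Sox3 (1.20) in KO-labelled cells alone, for Cubn (0.591) and Tfcp2l1 (0.485) in mCaPS alone, and for Lhx1 (-1.16) and Sox3 (0.798) in WT cells. Gata6 was not called without mCaPS embryoid body replicate 1, 2 or 3 (adjusted p = 0.0737, 0.09 and 0.0942), nor Kdr without replicate 2 or 3 (0.0506 and 0.0514). With the block between protocols the line differences of Ttr (adjusted p = 0.0573) and A530016L24Rik (0.0527) were not called. Few counts in embryoid bodies limit the folds of several genes, among them Hoxb5, Stra8, Vit and Wnt1. Aldh1a1, Osr1 and Meox1 had 18, 18 and 30 counts there, and Dbx1, Upk3b, Serpinf2 and Aldh1a7 also had few.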
